A study of Sus scrofa domesticus with 6 samples.

Results

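Interferon-stimulated genes were followed through the cell classes of pig lung before and after transplantation. The group holds 32 genes chosen by name: every feature row called exactly ISG15, ISG20, IFIT1, IFIT2, IFIT3, IFIT5, MX1, MX2, OAS1, OAS2, OASL, RSAD2, IRF1, IRF7, IRF9, STAT2, IFI44, IFI44L, IFI6, USP18, DDX58, IFIH1, CMPK2, HERC5, GBP1, GBP2, GBP5, EIF2AK2, PARP9, PARP14, XAF1 or SAMHD1. All 32 were listed in each of the 6 libraries, among 23556 genes listed in all 6. The libraries were droplet single-cell RNA libraries of domestic pig lung (Sus scrofa domesticus). The 3 control libraries hold the unsorted cells of donor right lungs, sampled after retrograde perfusion with no transplantation. The ischemia-reperfusion injury (IRI) libraries come from single-lung allografts that had been stored cold for 24 hours and then perfused with blood for 8 hours: 2 libraries of live cells sorted as positive for CD45, a surface protein of blood-derived cells (IRI CD45+), and 1 library sorted as negative for it (IRI CD45-). No control was sorted and no graft was left unsorted, so what the sort did and what the injury did cannot be told apart. The IRI libraries also list no mitochondrial genes, where the controls list 13. Their lowest deposited cells had 74 to 117 UMIs, against 1001 in controls. Any difference in how the libraries were processed thus runs with the groups too and cannot be told apart either. The labels mention 3 pairs of lung specimens but do not say which libraries pair or come from the same animals. The main tests therefore treat the libraries as independent, with no pairing. A p-value measures only the spread between these few libraries. Below, "grafts" means graft libraries, which need not come from different animals.

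Interferons are secreted proteins that cells release on sensing viral or misplaced nucleic acids. Type I interferons act through the receptor chains IFNAR1 and IFNAR2 and, by way of the kinases JAK1 and TYK2, bring STAT2 and IRF9 to antiviral genes, which are switched on. Type II interferon, IFNG, acts through IFNGR1 and IFNGR2 and typically raises IRF1 and the guanylate-binding proteins. The members fall into antiviral effectors (18 genes), ISG15 and its enzymes (3), transcription factors (4), RNA sensors (2), guanylate-binding proteins (3) and ADP-ribosyltransferases (2).

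Depth and class makeup set the precision. The deposited matrices held 19098567 to 40647380 UMIs (unique molecular identifiers, the tags that mark single captured transcripts) per library, and 40812 cells were clustered. Cell classes were named from marker genes, hence the ending "-like", and the members were kept out of the genes that defined the clusters. Several classes sat in different clusters in the 2 sets of libraries: T-like cells were mostly cluster 0 in controls and cluster 4 in grafts, cytotoxic NK/T-like cells clusters 7 and 9 against cluster 8, dendritic-like cells cluster 12.2 against 12.4, and blood endothelial-, smooth muscle/pericyte- and fibroblast-like cells were split the same way. B-, plasma- and mast/basophil-like cells each formed 1 cluster that held both. At a finer resolution (Leiden 2.0) B- and plasma-like cells were split as well, and macrophage-like cells in part. The first B-like cluster held 253, 371 and 209 control and 3 and 5 IRI CD45+ cells, the second 17, 56 and 40 against 403 and 416. The plasma-like clusters held 571, 420 and 361 against 26 and 15, and 8, 19 and 4 against 81 and 68. Of the macrophage-like clusters, that led by SPP1 held 237, 270 and 149 control cells against 0 and 3. That led by C1QA held 24, 71 and 117 against 28 and 25, and that led by FCN2 12, 68 and 148 against 7 and 6. The cluster led by PTGES3L held 42, 25 and 19 against 0 and 0. Genes of 50 kb or more had lower median changes than shorter genes in every class compared (in T-like cells a median log2 change of -0.53 against 0.14), and 24 of the 30 members with a known span are shorter than that. In the text below a level is UMIs per 10,000 UMIs of the class in a library, not divided by gene length, and a change is the log2 ratio of graft to control from edgeR's quasi-likelihood test with its standard error (SE). Adjusted p-values are Benjamini-Hochberg values over all genes tested in the class, with a threshold of 0.05, and every interval covers counting error only.

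The member score summarises a class in a library as the mean over the 32 genes of log2(level + 0.1). It was above that of all 3 controls in both IRI CD45+ libraries in T-, cytotoxic NK/T-, B- and plasma-like cells and in cluster 2, a group of cells led by RHEX, BLK and SOX13 that no marker list named. In T-like cells the score was -0.75, -0.49 and -0.60 in controls 1, 2 and 3 and 0.17 and 0.16 in the IRI CD45+ libraries, a difference of 0.78. B-like cells followed with a difference of 0.68 (control scores -1.28, -1.11 and -1.22, graft scores -0.43 and -0.62). In cytotoxic NK/T-like cells it was 0.62 (-0.73, -0.50 and -0.72 against -0.03 and -0.03). These 3 classes had the widest gaps of the 12. Cluster 2 and plasma-like cells had smaller gaps of 0.35 and 0.30.

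Elsewhere among immune cells the ranges overlapped. Macrophage-like cells differed by 0.34 on average, with 1 graft library at -0.04 and the other at -0.61, inside the control range of -0.79 to -0.49. Mast/basophil-like cells were split in the same way, at -0.51 and -1.70 against control scores of -1.71 to -1.16. Dendritic-like cells (a difference of 0.06) and plasmacytoid dendritic-like cells (0.20), the latter known as the main producers of type I interferon, overlapped too. Among structural classes, each with a lone IRI CD45- library, smooth muscle/pericyte-like cells lay above all 3 controls (-1.04 against -1.27, -1.19 and -1.31, a difference of 0.21 from the control mean), while fibroblast-like cells (0.12) and blood endothelial-like cells (-0.0048) lay within the control range. Control 2 had the highest control score in 12 of 12 classes, and in blood endothelial-like cells it reached 0.0068 beside -0.72 and -0.66.

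**Figure D1:**
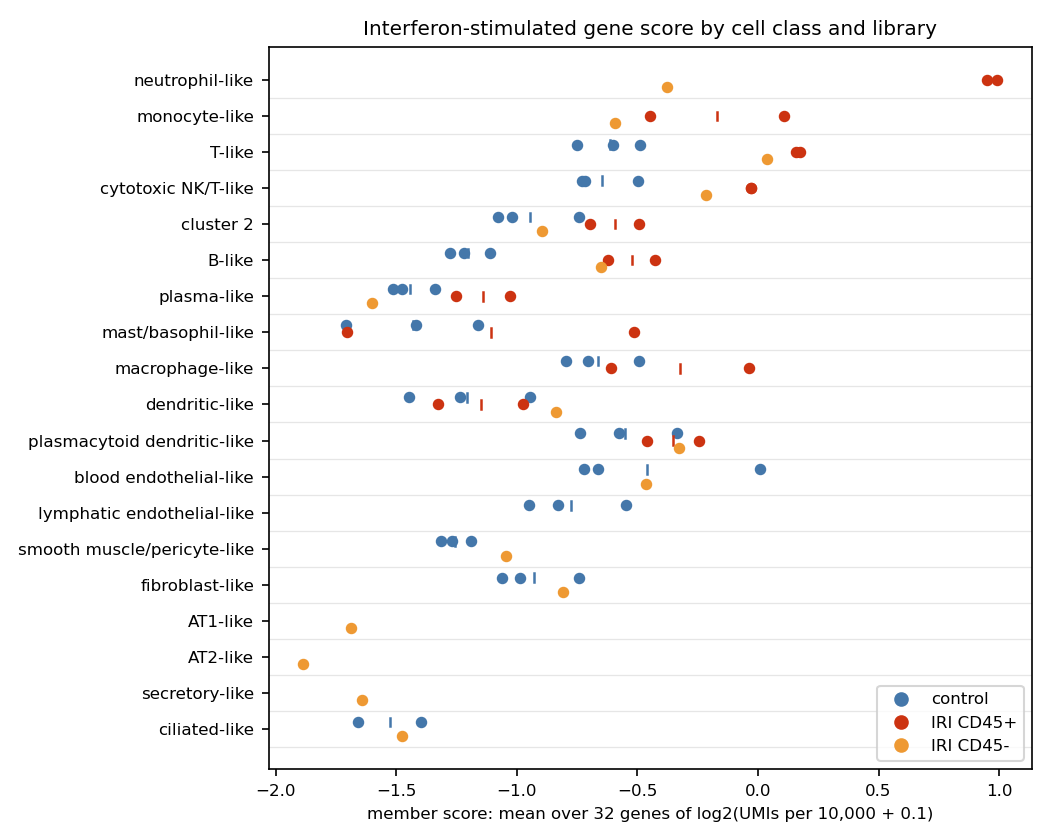
Member score (mean over 32 genes of log2(UMIs per 10,000 + 0.1), x axis) in each cell class (y axis); each point is 1 library with at least 20 cells of the class, and short bars mark means of groups with more than 1 library. Neutrophil-like cells lie highest, at 0.95 and 0.99 in the CD45+ libraries, and AT2-like cells at -1.88.

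Summed member RNA separated the same lymphocyte classes. In T-like cells the members took 35.7, 44.6 and 40.6 UMIs per 10,000 in the controls and 76.5 and 75.8 in the IRI CD45+ libraries. In B-like cells they took 20.8, 24.4 and 22.2 against 47.2 and 40.3, and in cytotoxic NK/T-like cells 39.0, 46.9 and 40.1 against 77.1 and 78.0. The lymphocytes that reached the IRI CD45- library, which had no part in these tests, stood near the CD45+ values: 69.7 in T-like, 41.7 in B-like and 66.3 in cytotoxic NK/T-like cells. That library carried surfactant-cell RNA in every class (9 AT2 markers summed to 77.3 per 10,000 in its T-like, 94.3 in its B-like and 252 in its cytotoxic NK/T-like cells, and to at most 3.35 in those of the controls), whose part in these levels was not tested.

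T-like cells had the most members called higher, though the test does not find changes equally well in every class. Of 31 members tested, 26 were higher and 1 was lower in the graft, against 27.4% higher and 30.9% lower among all 12042 genes of the same test; OAS1 was too sparse to test. The median member change was 1.11 and the median over all genes -0.04. With the test limited to genes under 50 kb, 20 of 23 members were higher and 0 lower. The share of all genes under 50 kb called higher or lower is not given here, for this or any other class. Every member of the transcription factors, RNA sensors, guanylate-binding proteins, ADP-ribosyltransferases and ISG15 group was called higher, as were 12 of 17 antiviral effectors tested.

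MX2, a dynamin-like GTPase that traps viral capsids at the nuclear pore, led in T-like cells. Its level was 0.199, 0.406 and 0.285 in the controls and 2.11 and 2.35 in the IRI CD45+ libraries, a change of 3.10 (SE 0.20, adjusted p = 2.3e-08 by edgeR). EIF2AK2, the RNA-activated kinase PKR that shuts down translation (chr3:103041029-103096741 in Sscrofa11.1), stood at 0.724, 0.839 and 0.898 against 4.56 and 4.39 (change 2.66, SE 0.13, adjusted p = 2.4e-13). No graft value of either gene came near a control value. IRF7, the factor that amplifies type I interferon production, rose by 2.25 (SE 0.18), from 0.163, 0.233 and 0.202 to 0.814 and 0.835. IFIT2, which binds foreign RNA, was sparse but also higher (13, 25 and 21 UMIs in controls, 98 and 70 in grafts; change 1.87, SE 0.30).

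The other members of fixed interest moved less in T-like cells. ISG15 (chr6:63363201-63364211), a ubiquitin-like protein that is coupled to other proteins, was at 5.6, 7.40 and 7.13 against 12.9 and 15.2 (change 1.28, SE 0.13). IRF1, a factor induced by both interferon types, was at 4.85, 4.60 and 5.56 against 8.20 and 6.81 (change 0.80, SE 0.13). STAT2 changed by 0.81 (SE 0.15) and IFIT1 by 0.68 (SE 0.15), all 4 called. SAMHD1, which starves viruses of nucleotides by cleaving dNTPs, went the other way in T-like cells. Its level was 1.27, 1.23 and 1.21 in controls and 0.512 and 0.535 in grafts, a change of -1.03 (SE 0.14, adjusted p = 2.7e-06 by edgeR).

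Cluster identity bears on the T-like count. Cluster 4 alone, which held 49 and 42 cells of controls 2 and 3, gave 10 members higher and 1 lower of 29 tested, where 4.84% of all genes were called higher and 3.13% lower. The 10 were EIF2AK2, GBP1, GBP2, HERC5, IRF9, ISG15, MX1, MX2, PARP14 and USP18, and the lower one was SAMHD1. Summed member levels inside cluster 4 were 44.5 and 38.6 in those controls and 76.4 and 75.9 in the IRI CD45+ libraries. The gap in summed level inside cluster 4 was thus close to that of the class, while fewer members passed the test.

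Cytotoxic NK/T-like cells, which kill through perforin and granzymes, resembled T-like cells in the count over the whole class. There, 23 of 31 members were higher and 2 lower, against 27.5% and 32% of 12340 genes, with a median member change of 0.90. EIF2AK2 was at 0.670, 0.893 and 0.667 in controls and 2.91 and 2.83 in grafts (change 2.00, SE 0.12). PARP14, an ADP-ribosyltransferase that modifies proteins in interferon-treated cells, was at 0.908, 1.08 and 1.04 against 3.32 and 3.58 (change 1.82, SE 0.10). MX2 changed by 1.84 (SE 0.35) and HERC5, the ligase that attaches ISG15, by 1.66 (SE 0.29). ISG15 rose by 1.19 (SE 0.09), IRF1 by 0.72 (SE 0.09) and STAT2 by 0.79 (SE 0.11), while IFIT1 overlapped between groups (change 0.15, SE 0.14, adjusted p = 0.37 by edgeR).

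OASL had the widest change in these cells, and it was a fall. OASL, a 2-5A synthetase-like protein that lacks the enzyme activity and helps RIG-I signal, gave 97, 155 and 116 UMIs in controls and 12 and 4 in grafts, that is 0.201, 0.255 and 0.187 per 10,000 against 0.0266 and 0.0142 (change -3.24, SE 0.32, adjusted p = 1.1e-06 by edgeR). SAMHD1 fell by 0.79 (SE 0.16). The count depended on which clusters were compared. Within cluster 8, which held 20, 24 and 32 control cells, 10 members could be tested, 2 of them were higher (EIF2AK2 and PARP14) and 0 lower, beside 13.3% and 17.1% of 1127 genes, and IRF1 had the opposite sign (-0.26). Summed member levels there were 85.9, 82.2 and 64.0 in controls and 77.4 and 78.0 in grafts, so the groups overlapped. The score, in which each member weighs the same, was -0.21, -0.36 and -0.51 against -0.03 and -0.03. Cluster 9, in turn, held 46.6, 54.5 and 47.3 in controls and 80.7 in the 31 cells of IRI CD45+ 1.

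B-like cells formed a single cluster across libraries at the main resolution but not at the finer one. They had 18 of 28 members higher and 2 lower, against 20.2% and 23.2% of 9740 genes. MX2 led again, at 0.758, 1.08 and 0.704 in controls and 3.34 and 4.86 in grafts (change 2.27, SE 0.21, adjusted p = 2.2e-07 by edgeR). OAS2, which makes the 2-5A signal that activates RNase L, was at 0.148, 0.198 and 0.141 against 0.813 and 0.645 (change 2.15, SE 0.24). No control value of either overlapped a graft value. IRF7 rose by 2.00 (SE 0.23), HERC5 by 1.90 (SE 0.23), ISG15 by 0.95 (SE 0.14), IRF1 by 0.91 (SE 0.16), STAT2 by 0.80 (SE 0.18) and IFIT1 by 1.23 (SE 0.27). DDX58, the cytoplasmic RNA sensor RIG-I, fell by 1.04 (SE 0.31), from 0.320, 0.318 and 0.244 to 0.189 and 0.0979, and SAMHD1 fell by 0.85 (SE 0.31). With genes under 50 kb alone, 14 members were higher and 0 lower, DDX58 and SAMHD1 being longer than that. The share of all such genes is again not given.

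Neutrophil RNA was measured in the same lymphocyte sums, because neutrophil-like cells of the graft carried far more member RNA. The 10 neutrophil markers summed to 0.435% to 1.32% of their neutrophil-like level in T-, cytotoxic NK/T- and B-like cells of the IRI CD45+ libraries. At that share neutrophil RNA would bring 0.232 to 0.998 ISG15 UMIs per 10,000, beside measured ISG15 levels of 8.37 to 15.2.

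In cluster 2, 11 of 27 members were higher and 1 lower (19.0% and 20.4% of 7676 genes). IRF7 rose by 1.96 (SE 0.38; 6, 8 and 8 UMIs in controls, 66 and 39 in grafts), MX2 by 1.75 (SE 0.29), GBP5, a guanylate-binding protein that promotes inflammasome assembly, by 1.60 (SE 0.29) and EIF2AK2 by 1.56 (SE 0.21). ISG15 rose by 0.65 (SE 0.16) and IRF1 by 0.77 (SE 0.20). IFI44L, an antiviral gene of little known mechanism, fell by 0.53 (SE 0.19). STAT2 (0.37, SE 0.32) and IFIT1 (-0.05, SE 0.35) were not called. In all, 9 members were called higher in each of T-, cytotoxic NK/T- and B-like cells and cluster 2: EIF2AK2, GBP2, HERC5, IRF1, IRF7, IRF9, ISG15, MX2 and PARP14. The share of all genes called higher in each of these classes is not given here.

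Plasma-like cells, which secrete antibody, had 10 of 27 members higher and 2 lower (14.8% and 21.2% of 10746 genes). MX2 (0.0611, 0.0634 and 0.0617 against 0.316 and 0.238) rose by 2.01 (SE 0.34), OASL by 2.02 (SE 0.45), EIF2AK2 by 1.32 (SE 0.17) and USP18, the protease that removes ISG15 and blocks IFNAR2, by 1.32 (SE 0.16). OASL thus moved in opposite directions in plasma-like and cytotoxic NK/T-like cells. ISG15 rose by 0.69 (SE 0.19) and STAT2 by 1.02 (SE 0.18). IRF1 (0.09, SE 0.16) and IFIT1 (-0.16, SE 0.62) were not called. IFI6, a small mitochondrial and ER membrane protein induced by interferon, fell from 14.2, 14.8 and 7.64 to 3.19 and 2.48 (change -2.25, SE 0.43, adjusted p = 0.025 by edgeR), and DDX58 fell by 1.36 (SE 0.41). With 91 and 77 graft cells, leaving out IRI CD45+ 1 gave 6 higher.

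**Figure D2:**
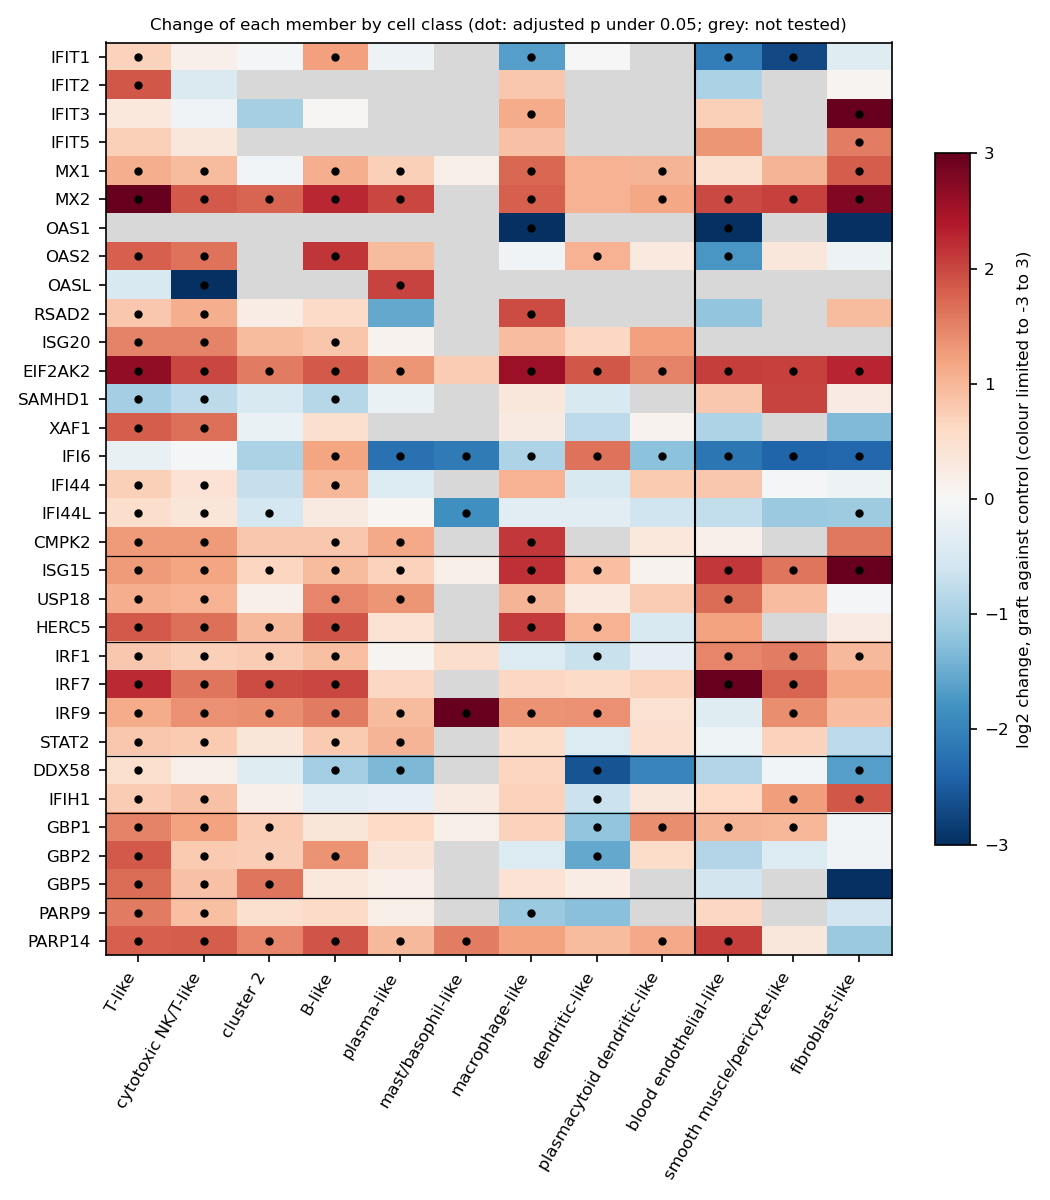
Change of each of the 32 members (rows, grouped by role) in each of 12 cell classes (columns), as the log2 ratio of graft to control; dots mark an edgeR adjusted p under 0.05 and grey cells were too sparse to test. The last 3 columns compare with the lone IRI CD45- library; EIF2AK2 carries a dot in 11 columns; IFI6 is blue with a dot in 7.

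Macrophage-like cells gave a mixed pattern: 10 of 31 members higher and 4 lower, against 10.4% and 15.6% of 10844 genes. The median member change was 0.69 and the median over all genes -0.32. EIF2AK2 was at 0.483, 0.585 and 0.389 in controls and 2.56 and 2.83 in grafts (change 2.58, SE 0.23, adjusted p = 3.4e-05 by edgeR). ISG15 was at 2.92, 4.11 and 2.45 against 14.8 and 11.9 (change 2.19, SE 0.21), and all 3 members of the ISG15 group were higher. MX2 was at 1.80, 2.01 and 2.33 against 6.49 and 6.61. HERC5 rose by 2.11 (SE 0.32), while CMPK2, a mitochondrial nucleotide kinase, was at 0.768 in IRI CD45+ 1 and at 0.182 in IRI CD45+ 2, the latter just above the highest control of 0.176 (change 2.11, SE 0.51).

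The share of members lower in macrophage-like cells (12.9%) was not above that of all genes (15.6%), and the 4 were OAS1, IFIT1, PARP9 and IFI6. OAS1, a 2-5A synthetase, gave 198, 339 and 270 UMIs in controls and 3 and 1 in grafts, a ratio of 0.0696 (95% exact interval 0.0189 to 0.179) and an edgeR change of -3.73 (SE 0.45, adjusted p = 0.00025). IFIT1, which binds viral RNA lacking the cell's own cap marks, gave 78, 92 and 115 against 3 and 3 (change -1.65, SE 0.49), and PARP9, partner of PARP14, 163, 151 and 198 against 10 and 6 (change -1.12, SE 0.38). The graft sums rest on 35 and 34 cells. IRF1 (-0.41, SE 0.25) and STAT2 (0.56, SE 0.31) were not called.

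The 2 IRI CD45+ libraries differed in macrophage-like cells. Without IRI CD45+ 1, 5 members were higher (EIF2AK2, HERC5, ISG15, MX1 and MX2) and 2 lower (OAS1 and IRF1), and without IRI CD45+ 2, 17 were higher and 2 lower (OAS1 and IFIT1). In cluster 13 alone, 9 of 31 were higher and 2 lower (IFI6 and OAS1), beside 9.8% and 15% of 10534 genes. The shares of all genes when a library was left out are not given here. At the finer resolution most graft cells of this class, 28 and 25, lay in the cluster led by C1QA, beside 24, 71 and 117 control cells. How that makeup bears on these counts was not tested. The 10 neutrophil markers summed to 38.3 and 14.3 per 10,000 in the graft cells and to between 16.4 and 38.2 in the controls, so that list did not separate the groups. In the graft macrophage-like cells that sum was 20.1% and 8.73% of the neutrophil-like level, a share at which neutrophil RNA would bring 10.7 of the 14.8 and 6.59 of the 11.9 ISG15 UMIs per 10,000. How much of the macrophage-like ISG15 change it makes up was not tested.

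Dendritic-like cells, which present antigen to T cells, had 6 of 25 members higher and 5 lower, against 15.3% and 19.4% of 7998 genes. EIF2AK2 (0.203, 0.4 and 0.328 against 0.954 and 1.27) rose by 1.87 (SE 0.29), IFI6 by 1.64 (SE 0.42), IRF9 by 1.38 (SE 0.50), HERC5 by 1.04 (SE 0.39) and ISG15 by 0.90 (SE 0.20). The share of members lower was near the 19.4% of all genes, and the 5 were both RNA sensors, IRF1 and 2 of 3 guanylate-binding proteins. GBP1, a GTPase that coats intracellular pathogens, was at 7.59, 10.7 and 9.75 in controls and 4.35 and 3.53 in grafts (change -1.19, SE 0.17, adjusted p = 4.1e-05 by edgeR), and GBP2 fell by 1.53 (SE 0.42). IRF1 fell by 0.68 (SE 0.18), from 3.92, 5.56 and 5.06 to 3.00 and 2.82. DDX58 gave 37, 69 and 39 UMIs against 4 and 2, a ratio of 0.153 (95% exact interval 0.0553 to 0.342). STAT2 (-0.40, SE 0.24) and IFIT1 (0.02, SE 0.80) were not called.

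The dendritic-like graft cells numbered 33 and 55 and came from another cluster than the control cells. Without IRI CD45+ 2, 2 members were higher and 6 lower, and with genes under 50 kb alone 2 were higher and 3 lower. With clusters named at a finer resolution (Leiden 2.0), 12 members were higher, IFI6 was no longer called and had the opposite sign (-0.18), GBP1 and GBP2 were no longer called, and STAT2 was at 0.19. The neutrophil marker sum was 3.26 and 8.43 per 10,000 in these graft cells and at most 0.181 in the controls. At that share neutrophil RNA would bring 0.908 of 6.86 and 3.89 of 8.34 ISG15 UMIs per 10,000, and its part in the result was not tested.

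Plasmacytoid dendritic-like cells had 5 of 22 members higher and 1 lower (8.82% and 12.7% of 6021 genes), from 23 and 29 graft cells. At the finer resolution too few graft cells carried this name for a fit. EIF2AK2 rose by 1.49 (SE 0.25) from control levels of 1.5, 1.85 and 1.62, GBP1 by 1.40 (SE 0.24), MX2 by 1.17 (SE 0.22) and PARP14 by 1.13 (SE 0.31). GBP1 moved up here and down in dendritic-like cells. IFI6 fell by 1.22 (SE 0.32). ISG15 did not separate the groups (6.53, 7.25 and 5.18 against 5.57 and 8.41, change 0.11, SE 0.22), and neither did IRF1 (-0.28, SE 0.24) or STAT2 (0.50, SE 0.27). In mast/basophil-like cells only 10 members were dense enough to test, of which 2 were higher and 2 lower (9.62% and 11.8% of 2818 genes). IRF9 rose from 4 control UMIs to 63 (ratio 16.2, 95% exact interval 6.02 to 61.3) and PARP14 by 1.53 (SE 0.52), while IFI6 fell by 2.12 (SE 0.53) and IFI44L by 1.84 (SE 0.54). IRF1 (18.5 and 4.56 in the grafts) and ISG15 (5.61 and 2.14) were not called in these cells, and without IRI CD45+ 1 no member was higher while GBP1 and IFI6 were lower.

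**Figure D3:**
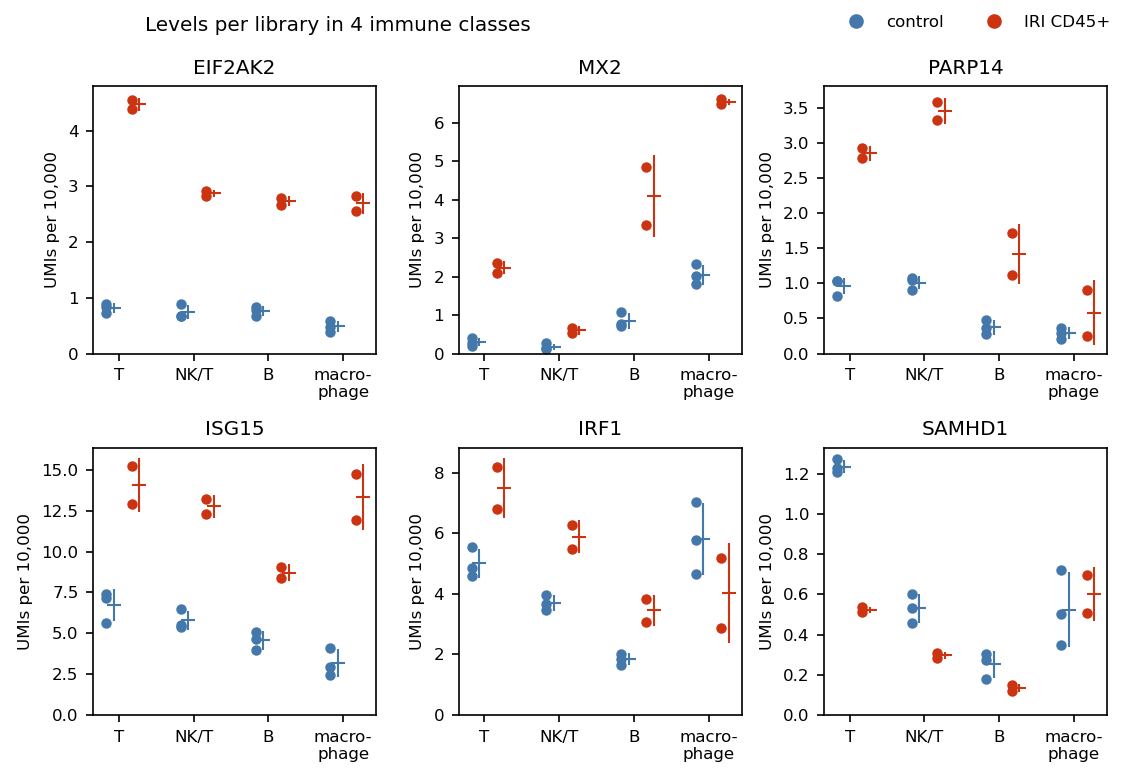
Levels of 6 members (UMIs per 10,000, y axes from 0) in 4 immune classes; points are libraries, and the bar beside them gives mean and SD (n = 3 controls, n = 2 IRI CD45+). EIF2AK2, MX2 and ISG15 separate the groups in all 4 classes, SAMHD1 is lower in the graft in the 3 lymphocyte classes, and IRF1 overlaps in macrophages.

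Structural cells were compared with the lone IRI CD45- library, which was assumed to vary like the controls. In blood endothelial-like cells, which line the vessels, 8 of 30 members were higher and 4 lower (18.0% and 13.9% of 7786 genes). ISG15 was at 3.13, 8.5 and 4.13 in controls and 17.8 in the graft (change 2.12, SE 0.38, adjusted p = 8.2e-05 by edgeR). IRF7 rose from 3, 1 and 2 UMIs to 63 (ratio 10.2, 95% exact interval 4.44 to 28.9). PARP14 rose by 2.08 (SE 0.45), EIF2AK2 by 2.07 (SE 0.52) and IRF1 by 1.46 (SE 0.36).

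The share of members lower in endothelial-like cells was near that of all genes, and the 4 were IFI6, IFIT1, OAS2 and OAS1. IFI6 stood at 12.7, 29.5 and 17.0 against 3.42 (change -2.17, SE 0.42), IFIT1 at 1.59, 2.07 and 1.21 against 0.291 (change -2.08, SE 0.48) and OAS2 at 2.07, 3.66 and 2.66 against 0.641. OAS1 gave 11, 39 and 16 UMIs against 4 (ratio 0.0590, 95% exact interval 0.0156 to 0.158). STAT2 was not called (-0.13, SE 0.59). The endothelial score, which averages both directions, lay within the control range.

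Fibroblast-like cells, which build the matrix, held the highest fitted rise of a member among the 12 classes, that of IFIT3: 8 of 30 members were higher and 3 lower (12.2% and 13.5% of 12925 genes), where the median over all genes was -0.75 and over members 0.02. ISG15 was at 1.06, 2.36 and 1.34 in controls and 15.2 in the graft (change 3.54, SE 0.44, adjusted p = 0.0049 by edgeR), and IFIT3, which stabilises IFIT1 on RNA, at 0.0795, 0.198 and 0.175 against 1.67 (change 3.64, SE 0.39). MX2 rose by 2.78 (SE 0.26), EIF2AK2 by 2.30 (SE 0.31) and IRF1 by 0.97 (SE 0.22). IFI6 fell from 29.1, 40.5 and 20.7 to 4.82 (change -2.34, SE 0.45), DDX58 by 1.66 (SE 0.53) and IFI44L by 1.07 (SE 0.32). IFIT1 (-0.37, SE 0.80) and STAT2 (-0.78, SE 0.42) were not called. Of the 125 graft cells, 118 belonged to cluster 23.3, which had no fibroblast marker among its 10 leading genes, so the name of the graft cells is less sure than that of the controls. At the finer resolution only 5 cells of the IRI CD45- library were still called fibroblast-like.

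In smooth muscle/pericyte-like cells, the contractile cells of vessels and airways, 8 of 20 members were higher and 2 lower (18.4% and 13.3% of 7085 genes). EIF2AK2 rose by 2.05 (SE 0.48), MX2 by 2.04 (SE 0.64), IRF7 by 1.74 (SE 0.69), ISG15 by 1.60 (SE 0.32) and IRF1 by 1.54 (SE 0.32). IFI6 (14.6, 16.1 and 8.74 against 1.92) fell by 2.41 (SE 0.40), and IFIT1 gave 37 control UMIs against 3 (ratio 0.115, 95% exact interval 0.0228 to 0.365). STAT2 was not called (0.69, SE 0.51). In DESeq2 only 2 members were higher and 1 lower in this class, and 3 were higher with the sums thinned to equal depth. AT2 markers summed to 459, 314 and 133 per 10,000 in the endothelial-, smooth muscle/pericyte- and fibroblast-like cells of the IRI CD45- library and to at most 2.66 in the controls, and the part of that RNA in these results was not tested. The 9 monocyte markers summed to 91.5 in the smooth muscle/pericyte-like cells of that library (15.8 to 22.7 in the controls) and to 53.7 in its fibroblast-like cells (12.4 to 14.5). The 15 macrophage markers summed to 0.381 (3.97 to 7.98) and 0.788 (7.38 to 11.0) in the same classes. The monocyte list includes THBS1, a leading gene of the graft smooth muscle/pericyte-like cluster at the finer resolution, and how much of the monocyte sums it makes up is not given here. The part of these sums in the results was not tested either.

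**Figure D4:**
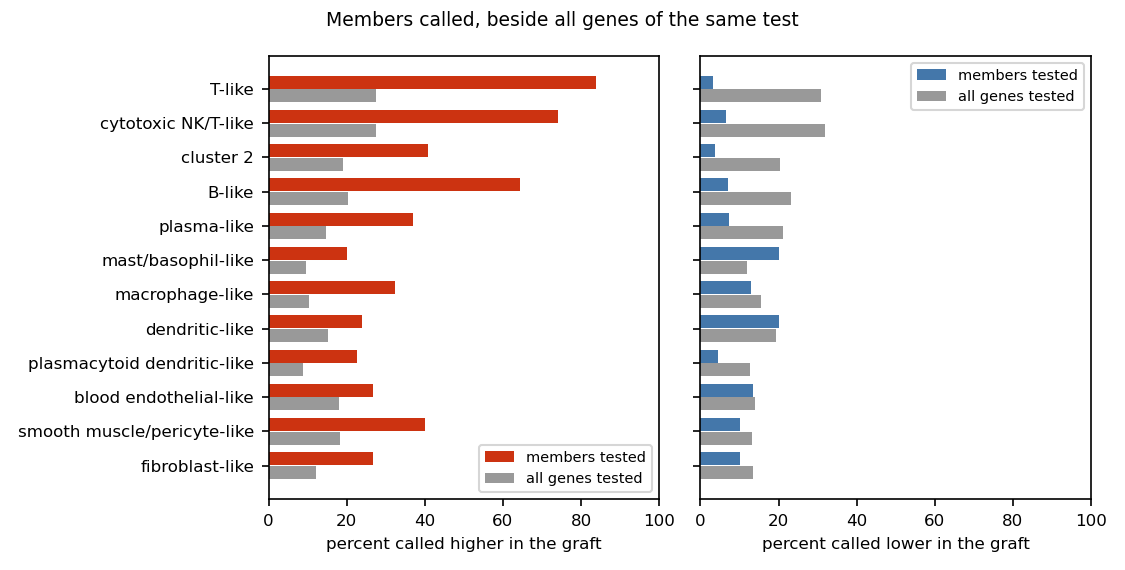
Percent of members tested (coloured bars) and of all genes tested (grey bars) called higher (left) or lower (right) in the graft in each of 12 classes, by edgeR at an adjusted p under 0.05. In T-like cells 83.9% of members against 27.4% of genes were higher; in dendritic-like cells 20% of members against 19.4% were lower.

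Read by member, 30 of the 32 were called higher in at least 1 of the 12 classes and 13 lower in at least 1. The share of all genes called in at least 1 class, or in as many classes as single members, is not given here. The member counts in this paragraph therefore cannot be weighed against all genes. EIF2AK2 was called higher in 11 of 12 classes, ISG15 in 10 of 12, MX2 in 10 of the 11 in which it was tested, IRF9 in 9 and PARP14 in 8 of 12. None of these 5 was called lower in any class. IFI6 was the reverse: lower in 7 classes and higher in 2, B-like and dendritic-like cells, of which the dendritic-like call was lost at the finer resolution. SAMHD1 (lower in 3 of 10 classes) and OAS1 (lower in 2 of 3) were the members called higher in no class. DDX58 was higher in T-like cells and lower in 4 classes, and IFIT1 was higher in 2 and lower in 3. The genes EIF2AK2 and PARP14 are among the 6 members of 50 kb or more.

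The calls of immune classes were also looked up in the IRI CD45- library. Of the 26 members called higher in T-like cells, 24 lay above all 3 controls there too (not DDX58 and IFI44L), as did 75.7% of all genes called higher in these cells. The same held for 22 of 23 in cytotoxic NK/T-like cells (79.4% of all such genes), 15 of 18 in B-like cells (84.6%) and 8 of 11 in cluster 2 (83.2%). In plasma-like cells it held for 4 of 10, beside 73.3%. The same controls entered the calls, so these shares are a description.

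Whether a change was larger in 1 immune class than in the others was tested with limma on per-library differences between the class and the mean of the other 8 immune classes. T-like cells stood apart in 11 of 31 members, all with a larger rise, beside 6% and 5.84% of all genes with a larger or smaller change. They were XAF1 (difference in log2 change 1.85), IFIT2 (1.67), GBP2 (1.61), MX2 (1.54), PARP9 (1.53), DDX58 (1.30), GBP5 (1.29), IRF7 (1.21), IFIT1 (1.05), EIF2AK2 (1.02) and IFI44L (0.87). Macrophage-like cells differed in 4 of 31 members (1.79% and 8.59% of genes), with a larger rise of ISG15 (1.36) and lower values for OAS1 (-3.89), IFIT1 (-1.55) and PARP9 (-1.55). Dendritic-like cells differed in 4 of 25 (2.26% and 3.23%): IFI6 (2.54), GBP2 (-2.04), GBP1 (-1.94) and DDX58 (-1.90). Of these 4 only DDX58 was still called in edgeR's comparison of that class at the finer resolution, where the class difference itself was not tested. Cytotoxic NK/T-like cells differed in OASL (-3.16) and XAF1 (1.57) among 31 (4.53% and 6.35%). At the adjusted threshold 0 members differed in the other 5 classes. Among all genes, 0.513% and 0.246% did in B-like cells, 1.52% and 0.234% in cluster 2, 0.549% and 1.69% in plasma-like, 2.66% and 0.674% in mast/basophil-like and 0.814% and 1.26% in plasmacytoid dendritic-like cells. At an unadjusted p under 0.05 from limma, 11 of 28 members did in B-like cells (19.3% of all genes), 4 of 27 in cluster 2 (21.5%), 11 of 27 in plasma-like (24.4%), 3 of 10 in mast/basophil-like (19.4%) and 5 of 22 in plasmacytoid dendritic-like cells (22.2%). These counts rest on single libraries. In T-like cells the 11 became 0 without either IRI CD45+ library and 4, 5 and 6 without controls 1, 2 and 3. In macrophage- and dendritic-like cells they became 0 without any one of the controls, and 11 without IRI CD45+ 1 and IRI CD45+ 2 respectively.

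Classes found mainly in the graft have no control value, so their levels are given as they stand. Neutrophil-like cells, short-lived phagocytes from blood, had the highest member level of any class in the IRI CD45+ libraries: 149 UMIs per 10,000 (95% Poisson interval 147 to 151) in IRI CD45+ 1 and 172 (169 to 174) in IRI CD45+ 2, from 878 and 757 cells. ISG15 alone was at 53.2 and 75.4 there, 35.8% and 43.9% of all member UMIs, and IFI6 at 22.4 and 19.7. In both libraries 18 of 32 members were higher in neutrophil-like cells than in any other class. The share of all genes highest in these cells in both libraries is not given here, so the 18 cannot be weighed against it. The exceptions in both were GBP2 and GBP5 (highest in T-like cells), GBP1 (cytotoxic NK/T-like), MX2 (macrophage-like), OASL (plasma-like), STAT2 and XAF1 (plasmacytoid dendritic-like), and CMPK2, SAMHD1 and USP18, whose highest class differed between the libraries. DDX58, IFI44, IRF1 and MX1 were exceptions in 1 library.

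In the IRI CD45- library neutrophil-like cells held 54.8 member UMIs per 10,000, below its T-like (69.7) and cytotoxic NK/T-like cells (66.3). They led in 4 of the 32 members there, and the share of all genes they led in is not given here either. They fell into 2 clusters there. Cluster 24 there, with 166 cells, held 150.4 member UMIs per 10,000, beside 151 and 172 in the CD45+ libraries, while cluster 20, with 541 cells, held 40.1. AT2 markers summed to 990.4 per 10,000 in the 707 neutrophil-like cells of that library, and the 10 neutrophil markers to 124. At the finer resolution only clusters with 156 and 83 cells of that library were named neutrophil-like. The neutrophil name of most of the 707 cells, and so the meaning of the 54.8, is therefore unsure. Monocyte-like cells held 76.1, 51.3 and 47.5 member UMIs per 10,000 in IRI CD45+ 1, IRI CD45+ 2 and IRI CD45-, with IFI6 at 19.6, 17.2 and 13.6.

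Epithelial classes of the graft were at the other end. AT2-like cells, which make surfactant, held 9.77 member UMIs per 10,000 (95% Poisson interval 9.63 to 9.90, 7831 cells), secretory-like cells 13.7, ciliated-like cells 14.7 and AT1-like cells, the flat gas-exchange cells, 17.4. ISG15 was at 1.66 in AT2-like, 2.72 in secretory-like and 3.89 in ciliated-like cells. Ciliated-like cells also had 21 and 47 cells in controls 1 and 2, where IFI6 stood at 34.8 and 31.7 against 0.922 in the IRI CD45- library. With no replicate of the graft and so few control cells, that difference was not tested. Lymphatic endothelial-like cells were found in controls only, with GBP1 at 25.2, 22.1 and 12.1.

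The rest of the pathway was read from lists of ligands, receptors, signalling genes, nucleic acid sensors and further interferon-stimulated genes. Of 10 ligands looked for, 4 were listed in all libraries. IFNG came mainly from cytotoxic NK/T-like cells, with 350, 369 and 358 UMIs in controls and 185 and 420 in the IRI CD45+ libraries, and was not called (change 0.59, SE 0.65, adjusted p = 0.50 by edgeR). IFNB1, a type I interferon, was called higher in macrophage-like cells on 13 control and 6 graft UMIs (ratio 6.48, 95% exact interval 2.02 to 18.3). Of the receptor genes, 2 of 5 tested were higher and 1 lower in T-like cells (27.4% and 30.9% of all genes), where IFNGR2 rose by 2.28 (SE 0.17). In smooth muscle/pericyte-like cells 5 of 5 were higher (18.4% of all genes), where IFNAR2 rose by 2.70 (SE 0.44) and IFNGR2 by 2.69 (SE 0.34).

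In plasma-like cells SOCS1, a brake on JAK signalling, was called lower (143 control UMIs against 6, ratio 0.262, 95% exact interval 0.0945 to 0.584). Of the nucleic acid sensing genes tested, 8 of 13 were higher and 2 lower in T-like cells, and 11 of 13 and 1 in cytotoxic NK/T-like cells (27.5% and 32% of all genes). There, IRF5, a factor downstream of Toll-like receptors, rose by 2.57 (SE 0.18) and TICAM1, the adaptor of TLR3, by 1.99 (SE 0.32). STING1, the sensor of cyclic dinucleotides, had 352 control and 3 graft UMIs in macrophage-like cells (ratio 0.12, 95% exact interval 0.0245 to 0.352).

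Further interferon-stimulated genes, outside the 32, were more often called higher than lower in T-, cytotoxic NK/T- and B-like cells. In T-like cells 18 of 23 were higher and 0 lower (27.4% and 30.9% of all genes), with DDX60 up by 2.18 (SE 0.24) and SAMD9 by 2.09 (SE 0.13). In cytotoxic NK/T-like cells 16 of 23 were higher and 2 lower (27.5% and 32%), with ADAR, an RNA-editing enzyme, up by 1.86 (SE 0.16). In B-like cells it was 12 of 22 and 2 (20.2% and 23.2%), with HERC6 up by 2.24 (SE 0.19), EPSTI1 by 2.18 (SE 0.19) and PARP12 by 1.95 (SE 0.24). Cluster 2 had 9 of 18 higher and 2 lower (19.0% and 20.4%), while plasma-like cells had 3 of 21 higher and 4 lower, near the 14.8% and 21.2% of all genes. In macrophage-like cells 7 of 24 were higher and 1 lower (10.4% and 15.6%), and SAMD9 rose by 2.20 (SE 0.31). In dendritic-like cells 3 of 19 were higher and 2 lower, near the 15.3% and 19.4% of all genes, SP110 falling by 2.18 (SE 0.28), and in the nucleic acid sensing list IRF8, a factor of dendritic cell identity, fell by 1.72 (SE 0.13). In plasmacytoid dendritic-like cells BST2, which tethers budding virus, rose by 2.43 (SE 0.37).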

How the data were processed

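The deposited matrices hold UMI counts per gene and cell that the authors had not normalized. The file headers name PISA as the program that wrote them. The submitters' processing notes list Sscrofa11.1, R 4.2.2 and Seurat 5.5.3; for the aligner and annotation, "not given in the sources used here" applies. The labels' protocols name the DNBelab C Series HT kit and the DNBSEQ-T7.

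Cells with at least 500 UMIs, 200 genes and at most 20% mitochondrial UMIs were kept. The IRI libraries list no mitochondrial gene, and their lowest deposited cells had 74 to 117 UMIs against 1001 in controls. Scrublet called 0 to 5 doublets per library, too few to have worked, so removing the top 6% of scores was an alternative. Cell names are running numbers: 2527 to 4924 recur between pairs of libraries, with the same UMI total in at most 3. Clusters (scanpy 1.11.5, Leiden resolution 1.0, 2000 variable genes, 109 member and pathway genes barred) were named from 22 marker lists. A cluster with a score under 2 and no own marker among its top 10 genes stayed unnamed, a rule added after seeing the clusters; unnamed cells were 0.022% to 7.11% of a library.

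UMIs of genes listed in all 6 libraries were summed per class and library (at least 20 cells) and tested with edgeR 4.0.16 (TMM, filterByExpr, robust quasi-likelihood), the SE being the log2 change over the square root of F. Class differences used limma 3.58.1 with a prior count of 2. DESeq2 1.42.0, other filters and leaving out each library were alternatives. The tests were first tried on simulated counts. Members printed per class were up to 4 called higher and 3 called lower by size, plus ISG15, IRF1, STAT2 and IFIT1; of the pathway lists, up to 3 called genes. Other members were named after their values were seen. Members, lists and tests were chosen with earlier results of these data known. Coordinates and spans (30 of 32 members) are those RefSeq gives for Sscrofa11.1. Promoter motifs were not analysed here. Counts over the list of receptor signalling genes are not reported here.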

Additional observations from a re-analysis of the deposited data

Results flagged for a closer look

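In 21 pairs of a member and an immune class, the change in that class differed from the mean change of the other immune classes in the limma test of that difference (adjusted p under 0.05). Several members appear in more than 1 class. T-like cells had the larger rise for IFI44L (0.869), EIF2AK2 (1.02), IFIT1 (1.045), IRF7 (1.206), GBP5 (1.292), DDX58 (1.299), PARP9 (1.527), MX2 (1.54), GBP2 (1.61), IFIT2 (1.668) and XAF1 (1.847), all as log2 differences. In cytotoxic NK/T-like cells OASL was lower by this measure (-3.162) and XAF1 higher (1.573). In dendritic-like cells GBP2 (-2.041), GBP1 (-1.939) and DDX58 (-1.898) were lower and IFI6 higher (2.539). In macrophage-like cells OAS1 (-3.887), IFIT1 (-1.552) and PARP9 (-1.546) were lower and ISG15 higher (1.363). The class compared and the other classes share libraries, and the control and graft cells of T-, cytotoxic NK/T- and dendritic-like cells came from different clusters. The shares of all genes that differed in this test are given in the Results. In cytotoxic NK/T-like cells the share of members was not above that of all genes in either direction. For lower values in macrophage-like cells it was near that of all genes. With a prior count of 0.5 the T-like calls fell to 4, and those in macrophage- and dendritic-like cells to 2 each. The T-like count also fell whichever library was left out. IFI6 in dendritic-like cells had the opposite sign against the controls (-0.1840) with clusters named at Leiden resolution 2.0.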

How the results depend on the processing

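The calls in T- and cytotoxic NK/T-like cells depended on the clusters compared: with cluster 4 only, 10 members were higher in T-like cells, and with cluster 8 only, 2 were higher and 0 lower in cytotoxic NK/T-like cells, where IRF1 changed sign (-0.2575). With cluster 13 only, 2 members were lower in macrophage-like cells. These 3 settings and the one by gene span were chosen after seeing the data. With genes spanning under 50 kb only, members higher became 7 in cluster 2, 2 in dendritic-like, 5 in fibroblast-like, 1 in mast/basophil-like, 3 in plasmacytoid dendritic-like and 5 in smooth muscle/pericyte-like cells, and members lower 0 in T-like and in B-like, 1 in cytotoxic NK/T-like, 3 in dendritic-like and 1 in plasma-like cells; IFIT1 in dendritic-like cells was -0.0783 and ISG15 in plasmacytoid dendritic-like cells -0.0035. Apart from such cases, 182 counts and score differences kept within 1.5 times or 1 SD and 53 did not, leaving out single libraries aside, and 4 changed sign; of single members, 721 values kept direction and call, 70 lost the call, 1 gained it and 19 changed sign. The causes were not tested.

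In DESeq2 members higher were 1 in mast/basophil-like and 2 in smooth muscle/pericyte-like cells, and members lower 1 in B-like, 0 in cluster 2, 1 in fibroblast-like, 2 in macrophage-like, 1 in plasma-like and 1 in smooth muscle/pericyte-like cells; IFIT1 in dendritic-like cells was -0.0281. At Leiden resolution 2.0, 12 members were higher in dendritic-like cells, with IFI6 at -0.1840, IFIT1 at -0.5267 and STAT2 at 0.1889, and plasmacytoid dendritic-like cells could not be fitted; cluster 2 and the structural classes were not fitted at that resolution, where 5 fibroblast-like cells of the IRI CD45- library kept the name. With cells of at least 1000 UMIs and 500 genes, 1 member was higher in mast/basophil-like cells, IFIT1 was -0.0023 in dendritic-like and STAT2 0.1299 in blood endothelial-like cells. With no low-count filter, 1 member was lower in mast/basophil-like cells, and IFIT1 was 0.0766 in cluster 2 and -0.0698 in dendritic-like cells, IRF1 -0.0006 in plasma-like and STAT2 0.0038 in blood endothelial-like cells. With sums thinned to the smallest, members higher were 6 in macrophage-like, 1 in mast/basophil-like and 3 in smooth muscle/pericyte-like cells, and members lower 1 in mast/basophil-like and 1 in plasma-like cells. With the top 6% of doublet scores removed, 1 member was higher and 1 lower in mast/basophil-like cells, IFIT1 was 0.1146 in plasma-like and STAT2 0.2036 in blood endothelial-like cells. With a prior count of 0.5 the members that differed between classes were 4 in T-like, 2 in dendritic-like and 2 in macrophage-like cells.

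As mean over cells of ln(1 + UMIs per 10,000) the score differences were 0.1683 in B-like, 0.2149 in T-like, 0.0575 in cluster 2, 0.1842 in cytotoxic NK/T-like, 0.1087 in macrophage-like, 0.0340 in mast/basophil-like and 0.0556 in plasma-like cells, and turned negative in fibroblast-like (-0.0138) and smooth muscle/pericyte-like cells (-0.0128). With a pseudocount of 1 they were 0.3294 in B-like, 0.4100 in T-like, 0.1651 in cluster 2, 0.3424 in cytotoxic NK/T-like, 0.1100 in plasma-like and 0.0730 in smooth muscle/pericyte-like cells, and 0.0050 in blood endothelial-like cells. Without the member of largest difference the score difference was 0.0726 in blood endothelial-like and 0.3056 in smooth muscle/pericyte-like cells.

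The deviations of same-numbered libraries had correlations of 0.052 (number 1) and 0.014 (number 2). With only 2 IRI CD45+ libraries these values mirror each other (control 1 had 0.052 with replicate 1 and -0.052 with replicate 2). The check therefore says little about pairing. With the replicate number as a block, 1 member was higher in mast/basophil-like cells, 2 were lower in cluster 2 and 2 in macrophage-like cells, and IFIT1 was 0.4130 in cluster 2 and 0.0753 in plasma-like cells, ISG15 -0.1048 in mast/basophil-like and -0.0497 in plasmacytoid dendritic-like cells.

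Leaving out each library in turn gave, for members higher, 2 to 7 in dendritic-like, 5 to 17 in macrophage-like, 0 to 4 in mast/basophil-like, 6 to 12 in plasma-like, 4 to 8 in plasmacytoid dendritic-like and 5 to 6 in smooth muscle/pericyte-like cells. For members lower it gave 0 to 2 in B-like, 1 to 2 in T-like, 0 to 3 in cluster 2, 3 to 6 in dendritic-like, 1 to 3 in macrophage-like, 1 to 2 in mast/basophil-like, 0 to 2 in plasma-like, 0 to 2 in plasmacytoid dendritic-like and 1 to 2 in smooth muscle/pericyte-like cells. Members that differed between classes numbered 0 to 6 in T-like, 2 to 4 in cytotoxic NK/T-like, 0 to 11 in dendritic-like, 0 to 11 in macrophage-like, 0 to 4 in plasma-like and 0 to 6 in plasmacytoid dendritic-like cells. Score differences ran from 0.5806 to 0.7766 in B-like, -0.1353 to 0.2282 in blood endothelial-like, -0.1181 to 0.2346 in dendritic-like, 0.0548 to 0.6257 in macrophage-like, -0.2738 to 0.9154 in mast/basophil-like and 0.1922 to 0.4160 in plasma-like cells. Members whose sign changed had these ranges: STAT2 -0.0266 to 0.6515 and IFIT1 -0.2554 to 0.3600 in cluster 2, IRF1 -0.2486 to 0.3592 in plasma-like, ISG15 -0.6809 to 0.6337 and IRF1 -0.7971 to 1.1487 in mast/basophil-like, STAT2 -0.1932 to 0.9217 in macrophage-like, IFIT1 -6.0739 to 0.9005 in dendritic-like, ISG15 -0.3217 to 0.4074 in plasmacytoid dendritic-like, STAT2 -0.3112 to 0.1726 in blood endothelial-like and IFIT1 -0.5298 to 0.0928 in fibroblast-like cells; none of these was called with all libraries. With so few libraries, and with graft classes as small as 23 cells, a change that was not called may have been beyond this depth.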

Other observations

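Control 2 had the highest member score of the 3 controls in each of the 12 classes compared, and its members took 45.4 of every 10,000 UMIs over the whole library, against 34.5 in control 1 and 34.7 in control 3. The IRI CD45+ libraries stood at 70.5 and 61.8 and the IRI CD45- library at 19.7, the last with 7831 AT2-like among 15017 cells.

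In fibroblast-like cells the member sum changed little while its makeup changed: IFI6 gave 64.4%, 65.1% and 54.2% of member UMIs in controls and 11.4% in the graft, and ISG15 2.34%, 3.79% and 3.52% against 36.0%. In blood endothelial-like cells IFI6 gave 33%, 38.8% and 38.5% against 6.21%, and ISG15 8.24%, 11.2% and 9.38% against 32.2%. In macrophage-like cells IFI6 gave 46.2%, 45.5% and 35.8% in controls and 15.1% and 19.4% in grafts, and ISG15 6.60%, 7.33% and 6.76% against 22.6% and 25.3%. IFNE, an interferon of epithelia, had 104 UMIs in AT2-like cells of the graft.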
